A study of Mus musculus with 13 samples.

Results

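In DNA from N2a cells, a mouse neuroblastoma line, 708 regions were called as DRIP-seq peaks in each of 3 libraries digested with RNase H and in none of 9 libraries made without that digestion before the pull-down (untreated libraries). DRIP-seq pulls down DNA paired with RNA by means of the S9.6 antibody and sequences it. The regions were chosen by 1 rule on the peak calls. Merging the peaks of the 3 digested libraries gave 10676 regions. One was kept when all 3 libraries had a peak in it and no untreated library had a peak that overlapped it by 1 base or more. The 708 regions made up 6.63% of the 10676, and this share is fixed by the rule and is not a finding. Since the rule used the calls, every fold, −log10 q-value and pileup from the digested libraries below is a description with no test.

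Cells were transfected with scramble siRNA (siScramble), with siRNA against Ddx1, an RNA helicase gene (siDDX1), or with siRNA against Exosc3, which encodes a cap subunit of the RNA exosome (siEXOSC3). Each of the 3 groups had 3 untreated libraries and 1 library of DNA digested with RNase H for 6 h before the pull-down, and all libraries came from DNA cut with 5 restriction enzymes (XbaI, SspI, HindIII, EcoRI and BsrGI). The groups share the wild-type cell line, the antibody and the cutting step, and differ by siRNA and by RNase H. Libraries are named here by their titles, although in 12 of 12 lists the names of the peaks carry another siRNA than the title. Lists titled siScramble held peaks named siDDX1, those titled siDDX1 held peaks named siEXOSC3, and those titled siEXOSC3 held peaks named siScramble. All 3 digested libraries enter the rule alike, so the choice of regions does not rest on which name is right, whereas a value given for 1 library does. With 1 digested library in each group, no difference between siRNA groups could be tested. Peak lists hold no RNA levels, so neither the cell line nor the knockdowns were checked against marker genes.

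R-loops are structures of 3 strands in which RNA pairs with 1 strand of the DNA and leaves the other unpaired. They form mostly during transcription, often near the starts and ends of genes, and the RNA exosome and RNA helicases are among the factors known to limit or shape them. RNase H is an endonuclease that cuts the RNA of such hybrids, and for that reason a digested sample is the usual negative control of a DRIP experiment. S9.6 recognises the hybrid and is also known to bind some double-stranded RNA.

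A region called after digestion and not before it is not shown to resist RNase H, because no untreated signal was called there with which to compare it. The regions are therefore called recurrent digested-only regions here, after the rule, and no statement is made on whether they hold hybrids.

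The position of the edges was not used by the rule. Most regions began or ended on a cut of the 5 enzymes, as did most regions of every set compared. For 5 of the 6 regions of rank 3 to 8 by lowest fold (the smallest fold enrichment among the 3 digested libraries), both edges are printed from the mm9 genome, plus strand, with 20 bases on each side of the edge and the recognition sites of the 5 enzymes in capitals.
chr8:106449916-106449955, left edge: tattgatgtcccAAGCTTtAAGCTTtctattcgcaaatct
chr8:106450425-106450464, right edge: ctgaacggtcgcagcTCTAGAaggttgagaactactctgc
chr6:49031376-49031415, left edge: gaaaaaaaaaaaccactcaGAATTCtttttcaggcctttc
chr6:49032217-49032256, right edge: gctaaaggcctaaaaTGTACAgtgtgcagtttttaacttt
chr8:104513896-104513935, left edge: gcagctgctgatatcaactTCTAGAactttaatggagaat
chr8:104515349-104515388, right edge: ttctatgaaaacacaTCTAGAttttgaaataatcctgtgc
chr3:77633060-77633099, left edge: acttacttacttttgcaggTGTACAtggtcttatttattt
chr3:77634091-77634130, right edge: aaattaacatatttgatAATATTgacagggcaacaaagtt
chr10:106107634-106107673, left edge: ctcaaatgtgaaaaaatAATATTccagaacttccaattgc
chr10:106108102-106108141, right edge: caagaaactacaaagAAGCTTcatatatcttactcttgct

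Each of these 10 windows held a site at its centre, where the region starts or stops. The 5 regions were thus bounded by EcoRI (GAATTC), HindIII (AAGCTT), XbaI (TCTAGA), BsrGI (TGTACA) or SspI (AATATT) on both sides. The sequence under the summit of the same 5 regions, 120 bases each, is printed next, since it is the part of each region with the most fragments. No site of the 5 enzymes lay in these windows, so they hold no capitals.
chr8:106450190-106450309: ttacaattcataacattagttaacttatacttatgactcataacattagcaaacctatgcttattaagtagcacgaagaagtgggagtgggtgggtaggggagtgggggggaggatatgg
chr6:49032028-49032147, 2410003K15Rik: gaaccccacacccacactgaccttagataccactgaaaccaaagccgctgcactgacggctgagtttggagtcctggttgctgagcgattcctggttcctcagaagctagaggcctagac
chr8:104514073-104514192: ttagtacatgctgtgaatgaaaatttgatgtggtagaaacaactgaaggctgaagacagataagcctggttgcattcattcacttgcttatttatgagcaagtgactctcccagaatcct
chr3:77633228-77633347: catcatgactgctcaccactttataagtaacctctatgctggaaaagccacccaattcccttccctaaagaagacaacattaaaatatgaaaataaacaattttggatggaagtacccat
chr10:106107877-106107996, Ppfia2: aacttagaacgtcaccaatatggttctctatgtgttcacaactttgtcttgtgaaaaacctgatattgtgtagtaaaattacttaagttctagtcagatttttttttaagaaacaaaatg

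Over all 708 regions, 483 left edges (68.2%) and 490 right edges (69.2%) lay exactly on a cut. A cut coincided with 1 or both edges in 623 regions (88.0%, 95% exact binomial interval 85.4 to 90.3%) and with both in 350 (49.4%, 45.7 to 53.2%), while 85 regions had no edge on a cut. These intervals, like all others here, cover counting error only. Of the 350 regions, 148 were exactly 1 restriction fragment with no further cut inside, with lengths of 320 to 3993 bases and a median of 871. The other 202 held further cuts, 1 only in 175 of them, and the fragment with the summit made up a median of 93.9% of the region. In 665 of 708 regions (93.9%) the 3 summits fell in the same restriction fragment.

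Digested regions called in 3 of 3 libraries that also had an untreated peak, 697 in number, had both edges on a cut in 53.4% (49.6 to 57.1%), an interval that overlaps that of the recurrent digested-only regions, and 1 or both edges on a cut in 84.2% (81.3 to 86.8%). Digested regions called in 1 or 2 of 3 libraries with no untreated peak reached 10.5% (9.82 to 11.2%), and the 69497 merged regions of the untreated libraries reached 8.26% (8.06 to 8.47%). With 1 or both edges counted, these last sets stood at 59.1% and 59.2%. Median widths were 775.5 bases in the recurrent digested-only regions and 884, 363 and 517 in these 3 sets in turn. Here and below, the untreated set holds every region called in 1 or more of 9 libraries. It was therefore not held to recurrence as the sets called in 3 of 3 libraries were. The part of width and of recurrence in the edge shares was not tested. Of the 973 edges on a cut, 23.6% were EcoRI, 22.0% SspI, 21.9% HindIII, 18.3% XbaI and 14.2% BsrGI. Among all 4752956 cuts of chromosomes 1 to 19 and X the order differed, with 32.7% SspI and 15.5% EcoRI.

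**Figure D1:**
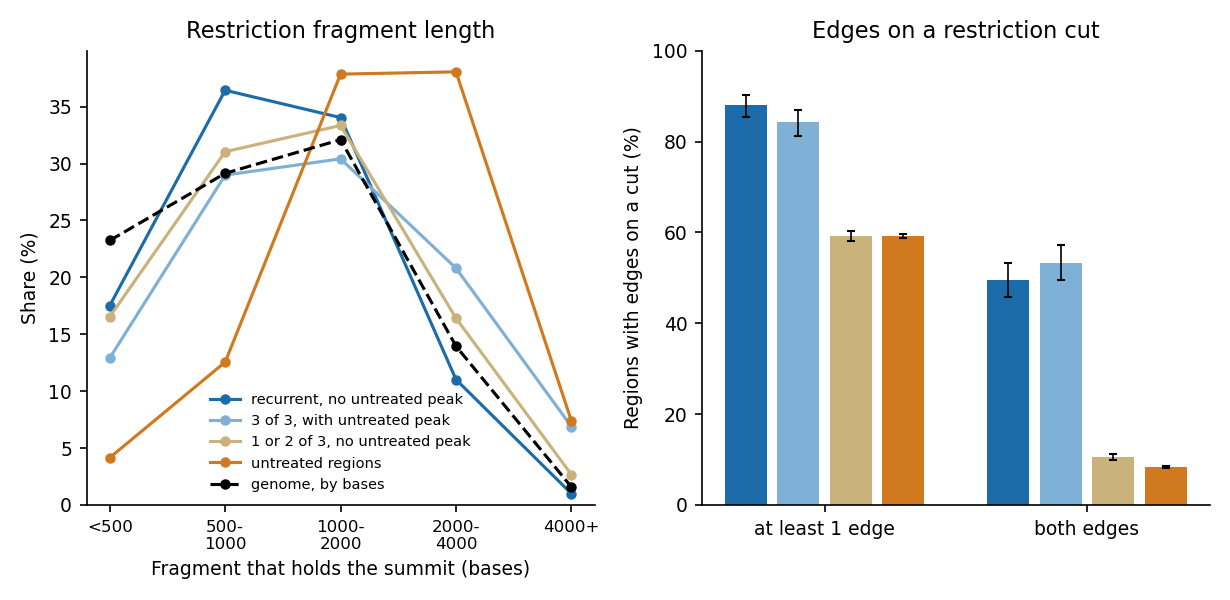
Left, share of regions (%) by the length in bases of the restriction fragment that holds the summit, for the 4 sets of regions and, dashed, for all genome bases. Right, share of regions (%) with at least 1 edge or both edges on a cut in the same colours, with bars as 95% exact binomial intervals. In the 500 to 1000 base class the recurrent digested-only regions reach 36.4% and genome bases 29.1%, and on the right both edges lie on a cut in 49.4% of them.

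The fragment that held the summit had a median length of 925.5 bases in the recurrent digested-only regions. Weighted by bases, the genome's fragments had a median of 951. The median was 1143 in the 697 regions with an untreated peak and 1873 in the untreated regions. Fragments under 500 bases held 17.5% of the recurrent digested-only summits, 23.2% of genome bases and 4.15% of untreated summits.

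The merged regions were 245 to 3993 bases wide, with a median of 775.5 and an interquartile range of 540 to 1143.5, and covered 644 kb together. The median width of the underlying peaks was 658 bases in the siScramble digested library, 509.5 in the siDDX1 one and 478.5 in the siEXOSC3 one. In 610 regions each library contributed exactly 1 peak. Start and end were identical to the base in all 3 libraries for 89 regions (12.6%), and 88 of those 89 had both edges on a cut.

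Fold enrichment is the peak caller's linear ratio of fragments stacked at the summit (the pileup) over the local background, each with 1 added. In the siScramble digested library the fold of the 708 regions ran from 1.97 to 33.1 with a median of 7.71. In the siDDX1 digested library it ran from 2.52 to 25.4 with a median of 6.93, and in the siEXOSC3 one from 2.12 to 29.2 with a median of 6.59. Over all peaks of these libraries, median folds were 5.40, 5.54 and 6.03. The ranges of the 3 libraries overlapped over almost their whole length, and siScramble was the library with the highest fold in 349 regions. The genome-wide background, which scales with depth, was 1.59, 1.17 and 1.13 in siScramble, siDDX1 and siEXOSC3. Because 1 is added to both terms, a fold also depends on depth. The part of depth in the differences between libraries was not tested.

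**Figure D2:**
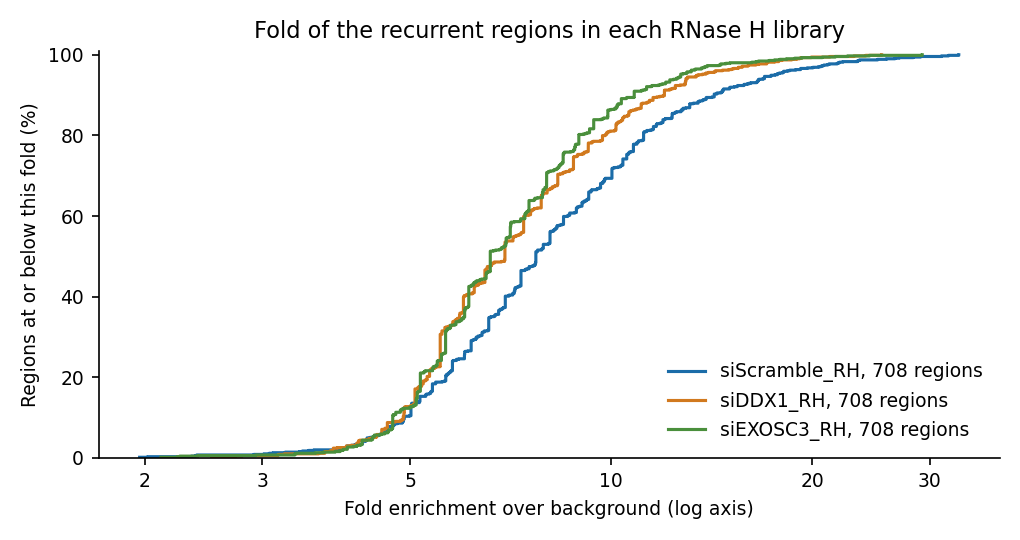
Share of the 708 regions (%) at or below each fold enrichment (log axis), 1 line per digested library. The siScramble line runs to the right of the other lines through its middle, with medians of 7.71, 6.93 and 6.59. Depth differed between the libraries, and its part was not tested.

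The pileup behind a median region was 21 fragments in the siScramble digested library, 15 in the siDDX1 one and 15 in the siEXOSC3 one, and the least was 9, 8 and 8. Values this low set the precision of a single fold. Within a region the highest of the 3 folds was a median of 1.48 times the lowest, and it was above 2 times in 115 regions (16.2%). Folds ranked the regions in a partly shared order. Spearman's rho over the 708 regions was 0.588 between siScramble and siDDX1, 0.448 between siDDX1 and siEXOSC3 and 0.383 between siScramble and siEXOSC3. The libraries share the input library as background, and the regions are not independent replicates.

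The lowest fold over the 3 libraries had a median of 5.57, and 45 regions (6.36%) kept a fold of 10 or more in all 3. Those 45 had both edges on a cut in 35 cases (77.8%) and identical edges in 28 (62.2%), with a median distance of 73 bases between the outermost summits. In the 465 regions with a lowest fold of 5 to under 10, identical edges made up 11.6% and the summit distance was 246 bases. In the 198 under 5, these were 3.54% and 347.5 bases. Fold and edges come from the same peaks and do not bear on each other independently.

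The 10 regions with the highest lowest fold all had identical edges in the 3 libraries, and 6 of them were intergenic. The highest was chr18:63395916-63396450, in an intron of Fam38b, the gene of a mechanically gated ion channel. Its fold was 23.5 in the siScramble digested library, 25.4 in siDDX1 and 29.2 in siEXOSC3, from pileups of 81, 54 and 62 fragments. The siEXOSC3 library was highest there, and all 3 values were above 20.

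Next was chr18:11164727-11165628, intergenic and 79.1 kb from Gata6, a transcription factor gene, with folds of 26.6, 23.1 and 20.7 in the siScramble, siDDX1 and siEXOSC3 libraries. On chromosome 8, chr8:106449936-106450444 had folds of 23.4, 19.2 and 24.4 in the same order and lay 175 kb from Cdh5, which encodes an endothelial cadherin. The order of the libraries thus differed between these regions.

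The region chr6:49031396-49032236, 841 bases wide, was 1 whole EcoRI to BsrGI fragment. It lay inside 2410003K15Rik, within 1 kb of the start of an annotated transcript and away from the gene's own start at base 49023794. Its fold was 33.1 in siScramble, 24.04 in siDDX1 and 17.6 in siEXOSC3, and the 33.1 was the highest of the 708 regions in that library. The siEXOSC3 library was lowest there. The region was also the top region nearest to an untreated peak, at 2391 bases.

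Of the other regions in the top 10, 2 lay in introns. In Gfra1, which encodes a receptor of the growth factor GDNF, the folds were 26.98, 18.01 and 16.5. In Ppfia2, which encodes a liprin of the presynaptic active zone, they were 15.4, 17.8 and 13.9. The highest library was siScramble in the first and siDDX1 in the second.

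The remaining 4 were intergenic. The folds in siScramble, siDDX1 and siEXOSC3 were 29.04, 19.9 and 17.2 at chr8:104513916-104515368, and 18.9, 17.1 and 19.3 at chr3:77633080-77634110. They were 17.6, 16.03 and 13.8 at chr15:54638122-54639072, which lay 31.4 kb from Enpp2, the gene of the secreted enzyme autotaxin. They were 14.7, 13.5 and 18.3 at chr8:77093588-77094554. No library was highest in all 4.

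**Figure D3:**
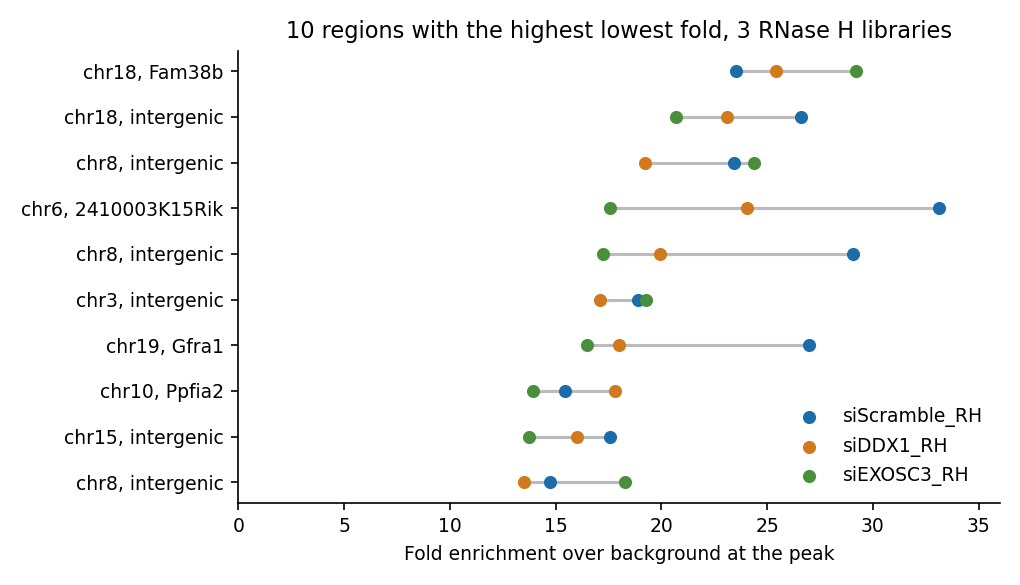
Fold enrichment (linear axis) of the 10 regions with the highest lowest fold, 1 point per digested library, joined by a line from the lowest to the highest. All points lie at 13.5 or above, and the order of the libraries changes from region to region.

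By chromosome, the regions averaged 0.277 per Mb of sequence without N over chromosomes 1 to 19 and X. Chromosome 15 had 0.558 per Mb (56 regions), chromosome 11 had 0.531 (63), chromosome 8 had 0.513 (64) and chromosome 1 had 0.413 (79). Those 4 chromosomes held 37.0% of the regions in 21.0% of the sequence. All 10676 digested regions were dense there too, with 10.6, 7.91, 7.40 and 5.07 per Mb on chromosomes 15, 11, 8 and 1. The sparsest were chromosome 7 with 0.106 per Mb (15), chromosome X with 0.123 (20) and chromosome 14 with 0.132 (16), where all digested regions numbered 2.07, 1.25 and 1.85 per Mb. None lay on chromosome Y or on the mitochondrial genome.

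The local background, which the peak caller takes from the input library, moved with part of this pattern. Set against each library's genome-wide level, the median background at all digested peaks was 1.17 to 1.25 times on chromosome 15, 1.12 to 1.14 times on chromosome 8 and 1.04 to 1.07 times on chromosome 11. On chromosomes 3, 7, 9, 14 and X it was 1.00 in the 3 libraries. Chromosome 13 had a background of 1.12 times with 0.292 regions per Mb, and chromosome 3 had a background of 1.00 with 0.339, so the order was not the same throughout. Over the 20 chromosomes, Spearman's rho of regions per Mb was 0.785 with this background and 0.323 with untreated regions per Mb. The part of the input level in the density was not tested. Chromosome 11 was also the densest in untreated regions, with 56.0 per Mb, and chromosome X the sparsest, with 5.72.

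**Figure D4:**
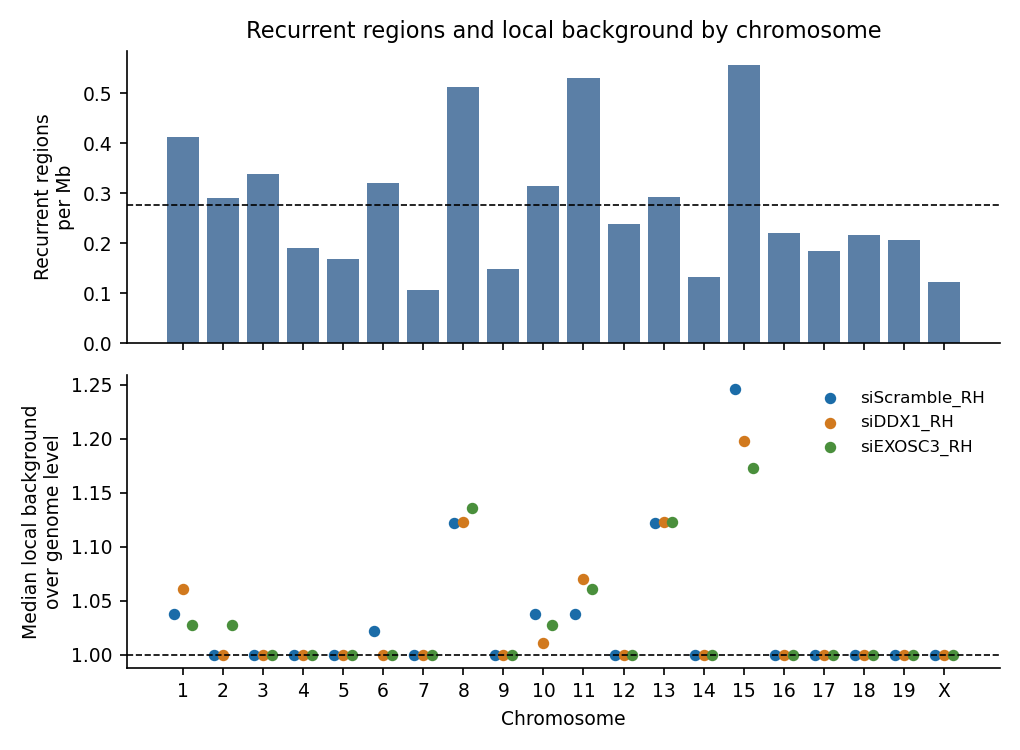
Top, recurrent digested-only regions per Mb of sequence without N by chromosome, with a dashed line at the genome mean of 0.277. Bottom, median local background at all peaks of each digested library over that library's genome-wide level, with a dashed line at 1. Chromosomes 8, 11 and 15 exceed 0.5 per Mb, and chromosomes 8, 13 and 15 have the highest background.

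Most regions had a background near the genome-wide level. In 81 it was above 2 times that level in 1 or more libraries, in 17 in all 3, and in 8 it was above 10 times in all 3. Of those 8, 6 lay on chromosome 11 in a stretch that spans Sfi1, which encodes a centrosome protein, and Drg1, which encodes a GTP-binding protein. The other 2 lay on chromosome 8 and both overlapped the noncoding genes 2610005L07Rik, AC152164.1 and Gm17279, and one also the protein-coding gene Gm15319.

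The 6 regions of Sfi1 and Drg1 had large pileups and small folds. At chr11:3059456-3059890 in an intron of Sfi1 the pileups were 149, 118 and 120 fragments in siScramble, siDDX1 and siEXOSC3, the background was 47.2, 36.9 and 46.7 times the genome-wide level, and the folds were 1.97, 2.70 and 2.26. At chr11:3083791-3085031, also in Sfi1, the folds were 5.72, 5.37 and 3.603, with a background 24.9, 27.3 and 27.2 times the genome-wide level. In the summit windows of these 6 the median 24-base word occurred once in the mm9 assembly. In those of the 2 high-background regions on chromosome 8 it occurred 10 and 12 times. All 6 regions of the 708 with a lowest fold under 3 were of this high-background kind.

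Counted by their midpoints, 407 regions (57.5%, 53.7 to 61.2%) were intergenic, 254 (35.9%) in introns, 18 (2.54%) in exons and 29 (4.10%) within 1 kb of a transcription start. The genome's own bases divide as 57.7%, 35.8%, 2.42% and 4.15% among the same classes. Untreated regions divide as 13.3%, 57.9%, 10.4% and 18.3%. In the 697 digested regions with an untreated peak the intergenic share was 49.5% (45.7 to 53.3%) and the share near starts 9.04% (7.02 to 11.4%). The rule did not use annotation, and regions are not replicates, so these shares stand as descriptions.

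**Figure D5:**
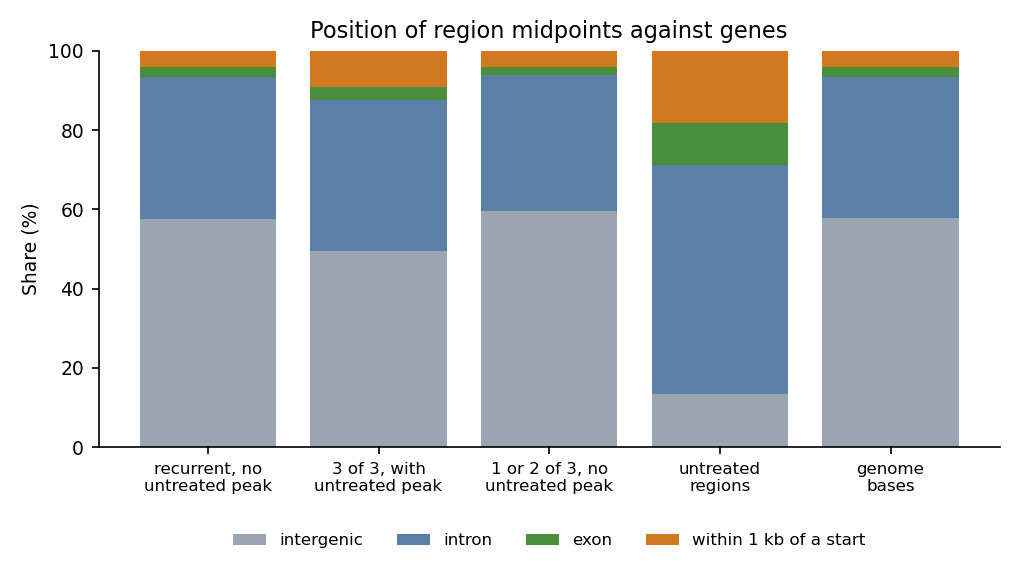
Share (%) of region midpoints that are intergenic, in introns, in exons or within 1 kb of a transcription start, for 4 sets of regions and for all genome bases. The intergenic share is 57.5% in the recurrent digested-only regions, 57.7% of genome bases and 13.3% of untreated regions.

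In all, 297 regions overlapped 282 genes of the GENCODE annotation of mm9, and 63 overlapped an exon. Protein-coding genes numbered 258 of the 282 (91.5%), beside 59.98% of all 37310 annotated genes. Their median length was 110 kb against 15.4 kb over all 22380 protein-coding genes, and 35 of them (13.6%) reached 500 kb. Weighted by length, the median over all protein-coding genes was 136 kb, and genes of 500 kb or more hold 17.1% of the summed length.

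Over all genes, 282 of 37310 were overlapped, and the counts for gene groups are descriptions beside that share. The olfactory receptor genes, 1251 in the annotation, gave 2, Olfr376 and Olfr1235-ps1, and the pheromone receptor groups Vmn1r and Vmn2r gave none of 257 and 180. Zinc finger genes named Zfp gave 4 of 376, which were Zfp141, Zfp457, Zfp521 and Zfp64. No histone gene of 70 and 1 protocadherin gene of 38, Pcdh11x, was overlapped. Small structural RNA genes gave 2 of 3818 (SNORA32 and a U2 gene) and miRNA genes 1 of 1577. Predicted genes named Gm gave 20 of 9222, and Rik clones 24 of 2576.

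The annotation placed 2 or more regions in 23 genes. Apart from Sfi1 with 5, the genes with 3 were Sgcd (1093 kb), which encodes a sarcoglycan of the muscle membrane, Thsd7b (946 kb) and the predicted gene Gm20388 (4435 kb). Among the genes with 2, Cntnap2 (2241 kb) encodes a neurexin-like protein of the axon, Rims2 (484 kb) an active zone protein, Clstn2 (589 kb) a postsynaptic calsyntenin, Cadm3 (33.4 kb) a cell adhesion molecule and Ncald (426 kb) a neuronal calcium sensor. Pde4d (1504 kb) encodes a cyclic AMP phosphodiesterase, Pard3b (1003 kb) a cell polarity protein, Ghr (266 kb) the growth hormone receptor and Il1rap (148 kb) an interleukin receptor chain. The others with 2 were 2610005L07Rik, AC152164.1, Drg1, Fhad1, Gm13247, Gm17279, Kif26b, Mia2, Sh3d19 and Sil1.

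In Cntnap2, the region chr6:46857124-46857670 had folds of 32.0, 21.2 and 10.4 in the siScramble, siDDX1 and siEXOSC3 digested libraries, and chr6:47245805-47246251 had 11.2, 11.5 and 8.94. In Pard3b, chr1:62213997-62214655, a whole BsrGI to EcoRI fragment, had 13.1, 11.1 and 9.41. In Sgcd, chr11:47140381-47141862 had 14.3, 11.1 and 8.81. The siEXOSC3 value was the lowest in each of these 4 regions, but not in others, such as chr15:37683457-37683896 in Ncald with 9.04, 8.15 and 11.1. Over all 708 regions siEXOSC3 was lowest in 298, siDDX1 in 252 and siScramble in 158, which was not tested. Depth differed between these libraries.

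Protein-coding transcription starts lay within 1 kb of 27 regions, counted over the whole region and over the starts of all annotated transcripts. Such a transcript start can lie inside the gene, far from the gene's own start. After 2410003K15Rik the highest was Hnrnpd, which encodes an AU-rich RNA-binding protein. Its region chr5:100405401-100405876 had folds of 22.2, 17.8 and 12.1 and lay 100 bases from an untreated peak. Ckmt1, the mitochondrial creatine kinase gene, had 11.3, 15.5 and 13.3 at chr2:121184992-121186609. The region chr3:96432310-96432873 overlaps an intron of 6330549D23Rik. It lies within 1 kb of a transcript start of Rbm8a, the gene of an exon junction complex subunit, and had folds of 10.0, 12.01 and 18.8. The highest library was siScramble, siDDX1 and siEXOSC3 in turn.

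Among the other starts, the region at Mre11a, which encodes a nuclease of double-strand break repair, had folds of 13.9, 8.31 and 9.41. That region began at base 14601397 of chromosome 9, inside the gene, which starts at 14589098. Hoxc4, a homeobox gene, carried one of the 5 widest regions, chr15:102865260-102868140 of 2881 bases, with 9.25, 8.78 and 7.88. It spans the end of the gene at 102867274, away from the gene's start at 102849367. At Pax6, a transcription factor gene of the eye and forebrain, the folds were 10.5, 5.20 and 9.28. The Pax6 region began at base 105528924 of chromosome 2, inside the gene, which starts at 105509053. At Stag1, the gene of a cohesin subunit, they were 7.71, 7.12 and 7.53, which differed by less than 1. The other starts named by the rule were those of Abca8a, Spats1, Gm4799, Sc4mol, Ncoa6, 6530418L21Rik, 1300018I17Rik, Mc2r, Psmd11, Aspscr1, 2310030N02Rik and 1700016C15Rik, with lowest folds of 5.08 to 10.5.

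The widest region was chr15:81893799-81897791, at 3993 bases exactly 1 EcoRI to BsrGI fragment, over an exon of 4930407I10Rik, with a lowest fold of 4.69. The other 3 of the 5 widest lay outside genes on chromosomes 2 and 11, at 3198, 2969 and 2804 bases. All 5 had both edges on a cut.

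The mean GC content of the 708 regions was 42.0% ± 5.41 (SD over regions, n = 708), beside 41.8% over the genome. It was 44.3% ± 7.01 in the 697 regions with an untreated peak and 47.8% ± 6.86 in untreated regions. The median ratio of CpG observed over expected was 0.164, beside 0.175 and 0.219 in those sets.

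Simple sequence motifs were searched on both strands in 300 bases per region, and in 8518777 genome tiles of 300 bases without N. Each window was centred on the summit of the region's peak with the highest fold. The outermost summits of the 3 libraries lay a median of 265.5 bases apart, so a window need not hold all 3. A run of at least 10 CA or TG units lay in 17 windows (2.401%) against 2.92% of tiles. A run of 10 GA or TC units lay in 2 (0.282%) against 1.31%, and a run of 10 AT units in 0 of 708 against 0.424%, where 3 counts of 708, taken as the limit that a count of 0 allows, come to 0.424% and the exact interval reaches 0.520%. Runs of at least 15 A or T lay in 22 (3.11%, 1.96 to 4.67%) against 1.84%. They lay in 3.04% of the 7686 digested regions called in 1 or 2 libraries with no untreated peak. In the 697 digested regions with an untreated peak the share was 2.30%. Runs of at least 30 purines or pyrimidines lay in 25 (3.53%) against 3.77%. A G4 pattern, 4 runs of at least 3 G with 1 to 7 bases between them, lay in 27 (3.81%, 2.53 to 5.50%) against 5.12%. Perfect tandem repeats of a 3 to 60 base unit, in at least 3 copies and 20 bases, lay in 44 (6.21%, 4.55 to 8.25%) against 5.05%. Their share was 6.99% in the 7686 digested regions and 8.90% in the 697. A window may hold several motifs. A match is a description and not a site.

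For 4 of the motifs, the highest region is printed with its matching stretch in capitals, to show what the search found in the windows. A window can reach past the edge of its region. The stretch in Cntnap2 begins outside its region, which starts at base 46857124.
CA or TG run, chr3:152259290-152259389, in Ak5: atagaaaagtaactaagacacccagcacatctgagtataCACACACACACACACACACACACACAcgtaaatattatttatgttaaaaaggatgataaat
A or T run, chrX:120156834-120156933: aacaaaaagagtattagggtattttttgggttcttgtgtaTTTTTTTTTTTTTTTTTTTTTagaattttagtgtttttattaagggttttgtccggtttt
Purine or pyrimidine run, chr6:46857083-46857182, in Cntnap2: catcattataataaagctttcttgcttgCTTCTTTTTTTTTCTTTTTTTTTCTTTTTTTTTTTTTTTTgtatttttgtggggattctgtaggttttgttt
G4 pattern, chr8:106450236-106450335: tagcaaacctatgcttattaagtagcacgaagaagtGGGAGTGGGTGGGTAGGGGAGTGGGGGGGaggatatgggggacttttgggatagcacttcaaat

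Most regions were single-copy in the assembly. The median 24-base word of the summit window occurred once in mm9 in 638 of 708 windows (90.1%, 87.7 to 92.2%), beside 81.8% of 42602 genome tiles on a fixed grid. It occurred 10 or more times in 31 windows (4.38%, 2.99 to 6.16%) beside 12.3% of tiles. In the 7686 digested regions called in 1 or 2 libraries with no untreated peak, these shares were 87.5% and 5.95%. In the 697 digested regions with an untreated peak, they were 86.1% and 6.46%. The highest of the 708 regions was 3293 copies, at chr17:45609436-45611181 in Spats1. Reads from repeated sequence can be placed at any copy, so such regions are uncertain in position.

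The regions were scattered. Joined over up to 50 kb, 66 of them formed 29 stretches of 2 or more and 642 stood alone. Of the 4 stretches with 3 or more, the longest was the 7 regions on chromosome 11 that include Sfi1 and Drg1, over 84.1 kb. Another held the chromosome 8 region of fold 19.2 to 24.4 with 2 neighbours over 26.5 kb.

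The median distance from a region to the nearest untreated peak of any of the 9 libraries was 86.1 kb. A peak lay within 1 kb of 44 regions (6.21%) and within 10 kb of 140 (19.8%), beside 22.3% within 10 kb for the 7686 regions called in 1 or 2 digested libraries with no untreated peak. Just inside the rule, a region within 1 kb of a transcript start inside Sc4mol, chr8:67210016-67210659, touched an untreated peak without overlap. The next lay 51 bases away, in Ssu72, with folds of 17.3, 8.78 and 9.41, and 56 bases away, in Sgcd, with 7.32, 4.62 and 5.18. Just outside it, 3 regions in Fkbp3, L3mbtl2 and Pacsin2 were overlapped by untreated peaks over 4 bases each. Their folds were 17.3, 10.1 and 8.94 in Fkbp3, 4.59, 5.58 and 7.68 in L3mbtl2 and 5.70, 5.91 and 6.14 in Pacsin2.

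Regions called in 1 digested library had no untreated peak in 84.8% of cases, and those called in 2 in 75.8%. Of the 1405 regions called in all 3, 50.4% had no untreated peak, 163 had one in 1 of 9 untreated libraries and 100 had one in all 9. The digested libraries had 3811 to 8034 peaks and the untreated ones 23882 to 42571. The genome-wide background, which scales with depth, is given over the untreated mean. It was 1.62 to 2.30 times that mean in the digested libraries and 0.785 to 1.86 times in the untreated ones. These ranges overlapped through siDDX1 replicate 1 alone, an untreated library with a background of 1.29. Every other untreated library had 0.544 to 0.706, below the 1.13 to 1.59 of the digested ones. At its own genome-wide background an untreated library needed at least 5 to 7 fragments for a call, or 5.42 to 9.19 times the background. The lowest pileup over background of the 708 regions was at or below the upper of these limits in 375 and at or below the lower in 42. These limits hold at the genome-wide background only, whereas the ratio of a region was taken over its local background. At genome-wide background the digested libraries called no peak below 5.64, 6.87 and 7.11 times it in siScramble, siDDX1 and siEXOSC3. The 42 therefore had a raised local background in 1 or more libraries. A lower ratio can be called on a raised background, as with 149 fragments over 75.3 at chr11:3059456-3059890 in siScramble. Whether an untreated library could call a signal of the same relative size at these regions cannot be told from the limits. The part of depth in the missing calls was not tested.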

How the data were processed

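The deposited peak lists of 12 DRIP-seq libraries were used, and the input sample was not analysed here. Per the study's methods, eluates of all pull-downs were treated with RNase H, whether or not the DNA had been digested before, sheared by sonication and end-repaired before library preparation. The authors then aligned reads to mm9 with Bowtie2 2.4.4 and called peaks for each library separately with MACS2 2.2.6 against the input. The deposited fold enrichment is a linear ratio, and the deposited p-values and q-values are on a −log10 scale, all from the authors' peak caller. Further filters are not given in the sources used here.

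Digested peaks were merged where they overlapped or touched, and any shared base counted as an overlap with an untreated peak. The local background and the whole-number pileup at each summit were solved from the fold and the −log10 p-value, which met the deposited value within 0.001 for 99.9 to 100% of the peaks solved. Genes came from the GENCODE annotation of the same build. Cuts of the 5 enzymes were located in the mm9 sequence, with 4-base overhangs counted as filled in. The genome file does not mark repeats, so copies of 24-base words were counted in their place, a measure chosen after seeing the data. Python 3.11.15, numpy 2.4.6, scipy 1.17.1, pysam 0.24.0, numba 0.67.0 and matplotlib 3.10.9 were used, and the functions were tested on simulated data.

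Groups came from the sample titles. No test was made, because the rule used the calls and each group had 1 digested library. Lists and members were chosen with earlier results of these data known. Regions named are the 10 highest by lowest fold, the 5 widest, those in genes with 2 or more, up to 20 within 1 kb of a protein-coding start, and 3 on each side of the rule. Alternatives changed the q-value limit, joining, clearance and overlap, and left out chromosomes or 1 library at a time. Some sequences are not reported here. Intervals on shares are exact Clopper-Pearson 95% binomial intervals and cover counting error only.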

Additional observations from a re-analysis of the deposited data

How the results depend on the processing

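No paired analysis was possible because each group had 1 digested library and no result came from a test. Digested peaks with a −log10 q of at least 5 left 398 regions, 397 of them overlapping the 708, which were 42.7% of regions called in 3 of 3 libraries, with median folds of 9.25, 8.31 and 7.82 in siScramble, siDDX1 and siEXOSC3 and a GC content of 41.7%. Requiring the 3 peaks to coincide over at least 50% of the region left 407 (45.9%), with a median width of 619, folds of 8.86, 7.85 and 7.53, a GC content of 41.4% and an edge on a cut in 91.9%. Joining peaks up to 1000 bases apart gave a width of 933.5 and a GC content of 42.1%. Clearance of 1000 bases gave a share of 47.3% and a GC content of 41.8%, and counting untreated peaks only from a −log10 q of 5 gave 61.9% and 42.4%.

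Leaving out 1 library at a time, the number of regions ran from 713 to 1565. It was 842 without the siScramble digested library, 1185 without siDDX1 and 1565 without siEXOSC3. Without 1 digested library, the rule asked for a peak in the remaining digested libraries only. Without 1 untreated library, fewer peaks could exclude a region. Both settings loosen the rule, so the higher counts follow from it and are not a finding. The share without an untreated peak ran from 50.7 to 64.6%, the median width from 623.5 to 778.5 bases and the GC content from 42.0 to 42.4%. Median folds ran from 6.55 to 7.71 in siScramble, 6.00 to 6.93 in siDDX1 and 6.12 to 6.59 in siEXOSC3, and the share with an edge on a cut from 80.9 to 88.1%. The intergenic share stayed between 56.9 and 60.3% in these settings. Counting untreated overlap only above 4 bases, an alternative chosen after seeing the data, gave 711 regions. The cause of the shifts in share, width, GC content, fold and edges was not tested. Pileups of 8 or 9 fragments, the least in the 3 libraries, limit the precision of single folds.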

Other observations

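Regions called in 2 of 3 digested libraries with no untreated peak numbered 1450. The siScramble and siDDX1 libraries shared 849 of them, siScramble and siEXOSC3 shared 465, and siDDX1 and siEXOSC3 shared 136. The siScramble digested library alone accounted for 4183 further regions with no untreated peak, the siDDX1 one for 970 and the siEXOSC3 one for 1083, with median folds of 5.01, 5.08 and 5.18. The genome-wide background was 1.59, 1.17 and 1.13 in the same order, and its part in these counts was not tested.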
